A study of Mus musculus with 8 samples.

Results

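The very long genes described here are protein-coding genes whose transcription unit, from gene start to gene end, covers at least 200 kb. They were taken from a deposited table of 2372 genes by their span and matched by position to the GENCODE M21 annotation of the mouse genome (GRCm38). Of 127 rows with that span, 13 carry names that the selection leaves out (families such as Slc, Zfp and Rab and a few single genes), 1 was not protein-coding and 1 had no match, which left 112 genes. The annotation holds 947 genes that meet the same rule, and the other 835 have no value here. All listed genes have an unadjusted p below 0.05 (the highest is 0.0499). The 112 are therefore the very long genes that already differed at that level, and neither their number nor their size of change can stand for very long genes as a whole. No further filter on low values was applied to them, and 109 of the 112 entered the authors' adjustment for multiple testing. The values come from the medial prefrontal cortex (mPFC) of naive adult male mice on a C57Bl/6J background. The CaKO group had 4 mice of genotype CamK2A-Cre;Gpr158flox/flox, in which Cre recombinase from the CamK2A promoter deletes the floxed gene of the orphan receptor GPR158 in forebrain excitatory neurons. The control group had 4 littermates of genotype Gpr158flox/flox, so the floxed alleles are shared by both groups and Cre is carried by CaKO alone. Mice with Cre and no floxed allele were not analysed here, so an effect of Cre itself and one of the deletion cannot be told apart.

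Very long genes are mostly intron. RNA polymerase II takes hours to cross the longest of them, many use several start sites, and the brain transcribes more of them than most tissues do. Many encode the adhesion molecules, channels, receptors and scaffolds of synapses. Drugs that inhibit topoisomerases lower the transcripts of long genes in cultured neurons.

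The 112 genes spanned 202.8 kb (St3gal3) to 1612 kb (Nrxn3), with a median of 332.4 kb, against a median of 18.04 kb for the other 1796 protein-coding genes listed in the adjustment. Exons made up a median of 2.38% of the span, against 21.2% for those other genes. The very long genes also had more merged exons (median 19 against 8 for those in the adjustment), a longer exon sequence (8739 against 3859 bases) and a lower GC content in the longest transcript (47.7% against 51.2%). They lay on 20 chromosomes, with 4 on the X chromosome. The values of the table are normalised read counts, that is, reads over the exons of a gene divided by 1 factor per library. Reads over all listed genes ranged from 2832931 to 3183638 per CaKO library, and total depth is unknown. Among the 109 very long genes in the adjustment, the mean over the 4 CaKO libraries ran from 60.1 (Dpyd) to 14634 normalised counts (Itpr1). Per kb of exon, the level ran from 4.47 normalised counts (Hmcn1) to 1199 (Prkce, a kinase of the protein kinase C family).

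Many of these genes have more than 1 promoter. RefSeq windows of 250 bases before a start (GRCm38.p6) were found by symbol for 83 of the 112 genes, with 130 windows, and 30 genes had more than 1 start. The windows of 3 genes are shown because these genes changed and because Frmd4a and Thrb begin at distant sites whose reads the table adds into a single value. Capitals mark matches on either strand to the GC box motif GGGCGG, the TATA box motif TATAAA, the cAMP response element TGACGTCA or the E-box motif CACGTG. The windows are Pdzrn3 (chr6:101377898-101378147, minus strand), Frmd4a starts 1 and 4 (chr2:4017433-4017682 and chr2:4559504-4559753, plus strand) and Thrb starts 1 and 2 (chr14:17660710-17660959 and chr14:17981394-17981643, plus strand).
Pdzrn3: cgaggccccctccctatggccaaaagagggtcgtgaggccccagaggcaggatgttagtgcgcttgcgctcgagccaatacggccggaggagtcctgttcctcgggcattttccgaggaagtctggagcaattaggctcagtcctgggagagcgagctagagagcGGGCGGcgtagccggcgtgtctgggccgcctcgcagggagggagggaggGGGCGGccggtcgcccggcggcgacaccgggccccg
Frmd4a start 1: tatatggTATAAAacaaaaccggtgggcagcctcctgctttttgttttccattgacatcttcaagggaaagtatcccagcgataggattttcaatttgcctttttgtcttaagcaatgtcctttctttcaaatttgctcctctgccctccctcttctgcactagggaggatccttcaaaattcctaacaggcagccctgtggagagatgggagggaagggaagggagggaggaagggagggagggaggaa
Frmd4a start 4: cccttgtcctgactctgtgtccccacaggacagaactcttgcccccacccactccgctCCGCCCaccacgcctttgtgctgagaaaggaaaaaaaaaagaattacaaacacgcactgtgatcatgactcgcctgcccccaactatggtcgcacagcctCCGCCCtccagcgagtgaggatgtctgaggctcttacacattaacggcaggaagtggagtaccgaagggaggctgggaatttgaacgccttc
Thrb start 1: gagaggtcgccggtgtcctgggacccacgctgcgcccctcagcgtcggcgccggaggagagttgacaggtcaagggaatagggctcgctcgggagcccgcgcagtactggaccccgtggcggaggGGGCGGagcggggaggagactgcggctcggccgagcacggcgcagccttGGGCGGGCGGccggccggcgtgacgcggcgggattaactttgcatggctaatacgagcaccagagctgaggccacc
Thrb start 2: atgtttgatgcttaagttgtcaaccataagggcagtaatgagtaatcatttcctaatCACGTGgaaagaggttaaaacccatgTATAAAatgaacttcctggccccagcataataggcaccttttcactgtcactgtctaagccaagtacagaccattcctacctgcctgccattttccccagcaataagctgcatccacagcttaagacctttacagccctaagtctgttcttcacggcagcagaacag
The first and the last of the 4 Frmd4a starts lie 542.1 kb apart. The window of the first holds a TATAAA match, at the end far from the start, and 2 CG dinucleotides. That of the last holds 2 GC box motifs and 11 CG dinucleotides. The 2 Thrb starts lie 320.7 kb apart. The first has 3 GC box motifs (2 of them overlapping) and 30 CG dinucleotides. The second has a TATAAA match, also away from the start, an E-box motif and 2 CG dinucleotides. Pdzrn3 has a single window with 2 GC boxes and 25 CG dinucleotides. A GC box was present in 47.7% of the windows of the very long genes and in 32.7% of all 32851 RefSeq windows. The TATA box motif was present, at any position, in 9.23% against 12.4%, the E-box in 7.69% against 6.02% and the cAMP response element in 2.31% against 1.55%. These matches are a description of the letters, and windows of 1 gene can overlap.

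Of the 4 CaKO libraries, replicate 3 stood apart for these genes. Among the 50 very long genes in the adjustment with a positive fold change it held the highest value for 29 (58.0%), and among the 59 with a negative one the lowest value for 34 (57.6%). Its median log2 ratio to the CaKO mean was 0.09 for the first and -0.12 for the second, whereas replicate 1 was at 0.00 and 0.08. The other listed genes showed this too, with replicate 3 highest for 48.7% of 874 genes with a positive fold change and lowest for 60.2% of 1064 with a negative one. Counts are therefore given with and without it. Control values were not analysed here, so the fold change without a library was approximated from the control mean that the deposited fold change implies, with a wider error for 3 libraries against 4. The wider error alone, with no change in the fold, would have left 12 of the 21 calls described next. The calls it would have ended were those of Ptprk, Mctp1, Tjp1, Pde8b, Hs6st3, Ntrk3, Asb3, Tmeff2 and St3gal3. For these genes, a call that ended is not by itself a sign of dependence on the library left out.

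**Figure D1:**
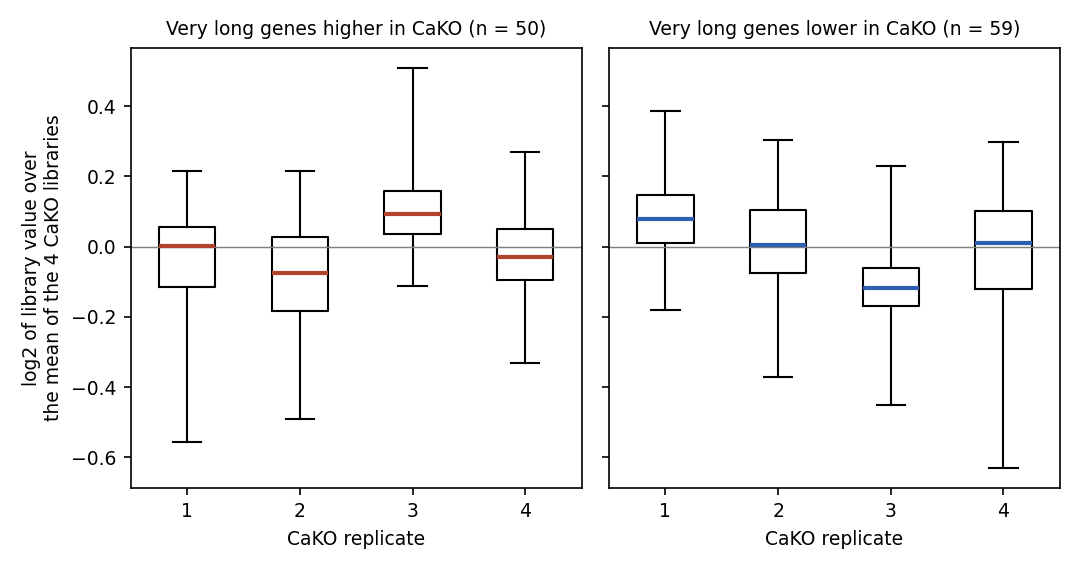
Log2 ratio of each CaKO library to the mean of the 4 CaKO libraries, for the 50 very long genes higher in CaKO (left) and the 59 lower (right). Boxes span the quartiles with the median as a coloured line, whiskers reach the lowest and highest gene, and replicate 3 sits above the others on the left and below them on the right.

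Among the very long genes, 7 rose and 14 fell, by the threshold of 0.05 on the adjusted p of the authors' deposited table. Over all 12938 genes of the adjustment, 1.27% rose and 1.97% fell (3.24% in either direction). How many very long genes entered the adjustment is not known from the table. At most 947 did, which puts the called share at 2.22% or more. Among genes listed with a p below 0.05, 19.3% of the very long genes and 19.9% of the other protein-coding genes were called. At an unadjusted p below 0.05, 50 very long genes were higher and 59 lower in the authors' deposited table, a share of 45.9% higher against 45.1% over all 2047 listed genes of the adjustment. Of all 12938, 7.14% were higher and 8.68% lower, 15.8% in all. Without replicate 3, the cause of whose distance was not tested, 0 of the 7 increases and 4 of the 14 decreases kept their call (Frmd4a, Pdzrn3, Phactr3 and Hmcn1), and 25 higher and 37 lower genes kept a p below 0.05. Calls of all listed genes went from 419 to 180 in the same step, so 43.0% of all calls and 19.0% of those of very long genes were kept. The kept share was also lower for very long genes with the other libraries left out. Without replicates 1, 2 and 4 it was 61.9%, 66.7% and 57.1%, against 77.3%, 70.6% and 77.8% of all calls. The wider error alone would have left 12 of the 21 calls of very long genes. The same number was not computed for all 419 calls. These shares therefore do not show whether calls of very long genes depend more on single libraries. Of the 7 increases, 2, 4 and 4 kept their call without replicates 1, 2 and 4, and of the 14 decreases 8 did without replicate 4. Other very long genes passed the same p limit only with a library left out. These were 3 lower genes without replicate 1 (Ust, Dpp6 and Myo16), 3 higher and 1 lower without replicate 2 (Tox, Cadm1, Spon1 and Tmem108), 0 without replicate 3 and 1 each way without replicate 4 (Synpr and Babam2).

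The changes were small. By the authors' deposited table, no very long gene in the adjustment differed more than 2-fold, whereas 22 of the other protein-coding genes did. The median log2 fold change there was 0.28 for the 50 higher and -0.31 for the 59 lower genes, against 0.31 and -0.37 for the other protein-coding genes. Very long genes had a higher level (median CaKO mean 803.4 against 516.6 normalised counts), and over the 1905 protein-coding genes the size of the fold change had a Spearman correlation of -0.59 with the level and -0.25 with the span. With a CaKO mean of 1000 or more, the median size was 0.26 for both the 49 very long and the 557 other genes. The direction had almost no relation to span, with a Spearman correlation of 0.02 over the 1905 genes, which share the same libraries. Within the 109 very long genes it was 0.20. All of these are descriptions across genes, which are not independent.

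**Figure D2:**
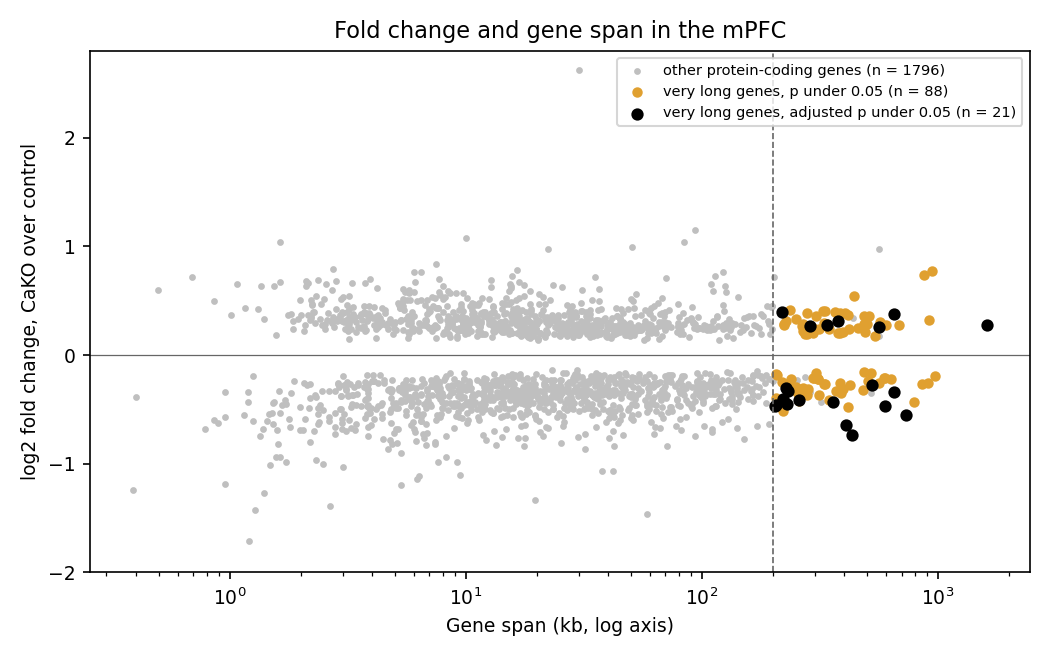
Log2 fold change (CaKO over control, authors' deposited table) against gene span on a log axis, for protein-coding genes with an unadjusted p below 0.05. Black points are the 21 very long genes with an adjusted p below 0.05, orange points the other 88, and grey points to the right of the dashed line at 200 kb are genes left out by name.

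Across span classes the called genes were most frequent at both ends. Of the listed protein-coding genes, 28.6% were called under 10 kb, 9.94% from 100 to 200 kb, 18.4% from 200 to 400 kb and 26.1% at 400 kb and over, the last class holding 12 calls among 46 genes (genes left out by name included). In the class from 100 to 200 kb, 3 rose and 13 fell. The class of 400 kb and over had 24 higher and 22 lower genes, against 61 and 100 from 100 to 200 kb. Just outside the limit of 200 kb, Pde4dip (198.9 kb), Glra2 (198.4 kb) and Rtn1 (197.3 kb) had log2 fold changes of -0.24, 0.45 and 0.24 in the authors' deposited table. Just inside it, St3gal3 (202.8 kb), Cdc42bpa (205.1 kb) and Sdccag8 (205.8 kb) had -0.47, -0.17 and -0.46 there.

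**Figure D3:**
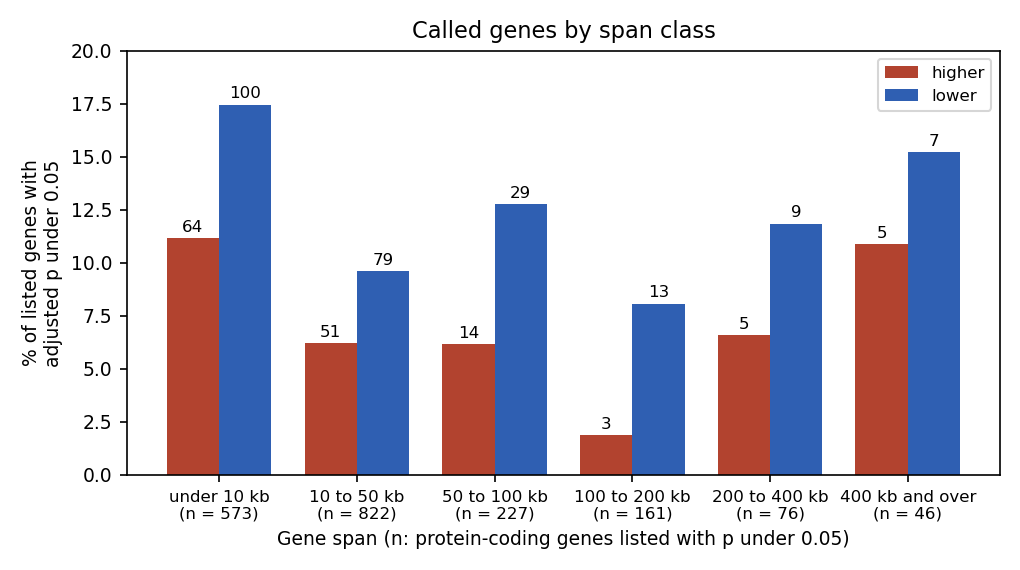
Percent of listed protein-coding genes (unadjusted p below 0.05) that were called at an adjusted p below 0.05, by span class, with the number of called genes above each bar. Red bars are genes higher in CaKO and blue bars genes lower, and the class from 100 to 200 kb has the smallest share of both.

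The decreases that held without any single CaKO library were those of Frmd4a and Pdzrn3. Frmd4a encodes a FERM-domain protein of cell junctions and polarity (chromosome 2: 4017717 to 4614043). Its CaKO libraries held 671.4, 613.2, 569.6 and 627.3 normalised counts in replicates 1 to 4 (620.4 ± 41.9, SD, n = 4). In the authors' deposited table it fell to 72.4% of control (log2 fold change -0.47, adjusted p = 0.000105). Pdzrn3, a PDZ-domain ubiquitin ligase that acts at synapses and in Wnt signalling (chromosome 6: 101149609 to 101377897), held 577.9, 657.3, 564.7 and 587.7 (596.9 ± 41.4, SD, n = 4). It fell to 73.1% of control by the authors' deposited table with a log2 fold change of -0.45 and an adjusted p of 0.00025. All 4 libraries of both genes were below the control mean implied by the fold change. With each library left out in turn, the log2 fold change stayed between -0.51 and -0.43 for Frmd4a and between -0.50 and -0.43 for Pdzrn3.

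Genes of synaptic and cell adhesion and of cell junctions were mostly lower. Of 11 with this role, 2 were higher and 9 lower, 1 rose and 3 fell. The 3 were Frmd4a, Pdzrn3 and Tjp1, which are scaffold, polarity or ubiquitin ligase proteins rather than adhesion molecules. The roles were assigned after the members and their values were known, and 10 genes were left in a mixed group. The shares to set beside each role, over all listed genes of the adjustment, were 45.1% higher and 20.5% called. Tjp1, the tight junction scaffold ZO-1 (chromosome 7: 65296165 to 65527781), held 1568, 1584, 1388 and 1659 normalised counts, with replicate 3 the lowest. It fell to 79.4% of control by the authors' deposited table, with an adjusted p of 0.0357. Nrxn3, a presynaptic neurexin that binds postsynaptic partners across the cleft (chromosome 12: 88722876 to 90334935), held 3974, 3443, 3726 and 3411 (3638 ± 265, SD, n = 4). It rose 1.21-fold by the authors' deposited table with a log2 fold change of 0.28 and an adjusted p of 0.028. Its span is the longest of the 112. Cadm1, a synaptic adhesion protein, was at 0.30 by the authors' deposited table, with an adjusted p of 0.0698. Lrrtm4, a postsynaptic partner of neurexins and glypicans, was at -0.43 by the authors' deposited table, with an adjusted p of 0.128, and another gene covers 25.1% of its exon sequence on the opposite strand. The calls of Tjp1 and Nrxn3 ended without replicate 1 (-0.34 and 0.23) and without replicate 3 (-0.28 and 0.26). With all libraries Tjp1 was at -0.33 by the authors' deposited table. Of 33 very long genes on a wider list of trans-synaptic adhesion, 6 had a value, 2 higher and 4 lower, 1 rose (Nrxn3) and 0 fell. All 6 are among the 11 counted above. Their median log2 fold change was -0.20, against -0.22 over all listed genes.

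Secreted and matrix proteins held the 2 largest decreases among the 109 genes in the adjustment. Hmcn1, the basement-membrane protein hemicentin (chromosome 1: 150562524 to 150993435), was weakly expressed at 123.6, 73.1, 99.4 and 82.3 normalised counts (94.6 ± 22.2, SD, n = 4). It fell 1.67-fold by the authors' deposited table with a log2 fold change of -0.74 and an adjusted p of 0.0194. Brinp3, a secreted protein of neurons (chromosome 1: 146494760 to 146902472), held 217.1, 232.4, 195.8 and 177.1. It fell to 63.8% of control by the authors' deposited table, with a log2 fold change of -0.65 and an adjusted p of 0.0232. Tmeff2, a transmembrane protein with follistatin domains (chromosome 1: 50900647 to 51187270), held 1075, 996.9, 1119 and 1010 normalised counts. It rose 1.2-fold by the authors' deposited table, with an adjusted p of 0.0498. Of the 9 genes of this kind, 5 were higher and 4 lower. The call of Hmcn1 ended without replicate 2 (-0.63) or 4 (-0.68) and that of Brinp3 without replicate 3 (-0.62) or 4 (-0.58). That of Tmeff2 ended without replicate 1, 3 or 4 (0.26, 0.24 and 0.29, against 0.27 with all libraries).

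Among 6 enzymes that build or modify sugar chains, 3 were higher and 3 lower, and 2 fell. Hs6st3, which adds sulfate to heparan sulfate (chromosome 14: 119138341 to 119869815), held 124.6, 130.3, 100.4 and 120.9 normalised counts. It fell to 68.4% of control by the authors' deposited table with a log2 fold change of -0.55 and an adjusted p of 0.0362. St3gal3, a sialyltransferase (chromosome 4: 117932154 to 118134914), held 360.8, 391.8, 348.9 and 467.9. It fell to 72.1% of control by the authors' deposited table, just past the threshold, with a log2 fold change of -0.47 and an adjusted p of 0.0499. The heparan sulfotransferase Hs3st4 was at 0.37 and Ust, which sulfates uronic acid in chondroitin and dermatan sulfate, at -0.36 by the authors' deposited table, with adjusted p-values of 0.194 and 0.0609. The call of Hs6st3 ended without replicate 3 (-0.48) or 4 (-0.56), and that of St3gal3 without replicate 1, 2 or 3 (-0.43, -0.47 and -0.42). Without replicate 4 the decrease of Hs6st3 was no smaller than with all libraries (-0.55), so the wider error alone ended that call.

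The cytoskeletal genes in the adjustment were lower in every case. Of 12 very long genes of the actin, microtubule and membrane skeleton, 10 were in the adjustment, 0 of them higher and 10 lower, with 3 that fell. Over these 10 the median log2 fold change was -0.31, against -0.37 over all listed genes that were lower. Among all listed genes of the adjustment, 45.1% were higher and 20.5% were called. The cytoskeletal role was assigned after the values were known. Phactr3, which binds actin and protein phosphatase 1 (chromosome 2: 178118975 to 178338492), held 1878, 1565, 1651 and 2098 normalised counts (1798 ± 239, SD, n = 4). It fell to 75.7% of control by the authors' deposited table with a log2 fold change of -0.40 and an adjusted p of 0.012. Mtus2, a microtubule-binding protein (chromosome 5: 147957320 to 148316065), held 838.2, 820.6, 636.2 and 776.3, with replicate 3 well below the others. Its decrease was to 74.3% of control by the authors' deposited table with a log2 fold change of -0.43 and an adjusted p of 0.0157. The centrosome protein Sdccag8 (chromosome 1: 176814660 to 177020437) held 273.4, 270.5, 206.8 and 219.9 and fell to 72.8% of control by the authors' deposited table, with an adjusted p of 0.0206. Ank3, the ankyrin that organises the axon initial segment, did not pass, at -0.22 by the authors' deposited table, with an adjusted p of 0.233, and its libraries ranged from 3919 to 5220. Without replicate 3 the calls of Mtus2 (-0.35) and Sdccag8 (-0.39) ended, that of Sdccag8 also without replicate 4 (-0.41), and that of Phactr3 without replicate 2 (-0.34). Of 32 very long genes on a wider cytoskeletal list, 4 had a value, all lower, and 2 fell. These 4 are among the 10 counted above, so the list adds no further genes. The axonemal dyneins did not enter the adjustment. Dnah11, with a negative log2 fold change, was listed at 0 in every CaKO library. Dnah7a went the other way, at 0.62 by the authors' deposited table, and ranged from 35.2 to 42.7 normalised counts. Its reads could be shared with its near-identical copies Dnah7b and Dnah7c. The third gene outside the adjustment was E130114P18Rik, of the mixed group, with 18.8 to 29.1 normalised counts.

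Among the very long calcium genes, the sensors were higher and the stores and pumps were divided, with few calls. Of 7 very long genes for calcium stores, pumps and sensors, 5 were higher and 2 lower, and 2 rose. The 2 lower genes were a store channel and a pump. Over all listed genes of the adjustment, 45.1% were higher. Itpr1, the inositol trisphosphate receptor that releases calcium from the endoplasmic reticulum (chromosome 6: 108213096 to 108551109), held 13050, 15393, 15249 and 14845 normalised counts. It rose 1.21-fold by the authors' deposited table with a log2 fold change of 0.28 and an adjusted p of 0.019. Its mean count was the highest of the 109. Mctp1, a membrane protein with calcium-binding C2 domains (chromosome 13: 76384535 to 77031810), held 765.9, 810.6, 928.5 and 756.5, with replicate 3 above the rest. It rose 1.3-fold by the authors' deposited table with a log2 fold change of 0.38 and an adjusted p of 0.0342. The calmodulin-dependent kinases Camk1d and Camk2d were at 0.24 and 0.33 by the authors' deposited table, with adjusted p-values of 0.103 and 0.116. Atp2b2, a plasma membrane calcium pump, was at -0.21 and the second inositol trisphosphate receptor Itpr2 at -0.31 by the authors' deposited table, with adjusted p-values of 0.129 and 0.131. Leaving out replicate 2 or 3 ended the calls of Itpr1 (0.25 and 0.26) and Mctp1 (0.38 and 0.31). Without replicate 2 the increase of Mctp1 was no smaller than with all libraries.

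The plasma membrane ion channel genes were divided in direction. Of 8 such very long genes for channels and their subunits, all listed at an unadjusted p below 0.05, 4 were higher, 4 were lower and 0 were called. Itpr1, itself a calcium release channel, was counted above with the calcium stores. The potassium channel Kcnd3 and its partner Dpp6 had opposite signs, at 0.28 and -0.26 by the authors' deposited table, with adjusted p-values of 0.0659 and 0.0718. Kcnq5, a potassium channel of the M-current, was at -0.26 by the authors' deposited table, with an adjusted p of 0.203. The libraries of Kcnq5 split into 2 pairs, with 2324 and 2386 in replicates 1 and 2 and 1812 and 1778 in replicates 3 and 4. On the wider ion channel list, which also holds the inositol trisphosphate receptors and a GABA-B subunit, 9 of 39 very long genes had a value, 4 higher and 5 lower, and 1 of them rose (Itpr1). All 9 are also counted by role.

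Receptor genes gave 1 call in each direction. Ntrk3, the neurotrophin receptor TrkC (chromosome 7: 78175959 to 78738012), held 3788, 3622, 3977 and 3764 normalised counts, the 4 libraries within 10% of one another. It rose 1.2-fold by the authors' deposited table with a log2 fold change of 0.26 and an adjusted p of 0.0401. Ptprk, a receptor tyrosine phosphatase (chromosome 10: 28074820 to 28597397), held 1187, 1119, 1050 and 1084 and fell to 82.8% of control by the authors' deposited table, with an adjusted p of 0.032. The serotonin receptor Htr2c was at 0.41 and Gabbr2, a subunit of the GABA-B receptor, at -0.27 by the authors' deposited table, with adjusted p-values of 0.177 and 0.255. Htr2c ranged from 256.5 to 451.3 normalised counts, and the implied control mean lay inside that range. Of 16 very long genes on the list of presynaptic scaffold and release proteins, 0 had a value. Without replicate 3 the calls of Ntrk3 (0.23) and Ptprk (-0.25) ended. They also ended without replicate 4 (0.26 and -0.26), and that of Ntrk3 without replicate 1 (0.26). Without replicate 4 the increase of Ntrk3 was no smaller than with all libraries.

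Pde8b and Dock10 fell among the other signalling genes. Of 7 kinases and phosphodiesterases not counted with the receptors or the calcium sensors, 2 were higher and 5 lower. The kinases Camk1d, Camk2d, Ntrk3 and Igf1r, counted there, were all higher, so these counts give no direction for kinases as a whole. Of 6 regulators of small GTPases 1 was higher and 5 lower. Pde8b, which breaks down cyclic AMP (chromosome 13: 95024454 to 95250336), held 837.2, 874.7, 782.4 and 926.4 normalised counts and fell to 81.2% of control by the authors' deposited table, with an adjusted p of 0.0362. BLAST matched Pde8b to Gm48420, a gene on the opposite strand that covers 7.60% of its exon sequence. Reads could be shared between them, and use of strand in counting is not given here. Dock10, an exchange factor for small GTPases (chromosome 1: 80501073 to 80758527), held 463.3, 395.8, 382.7 and 429.3 and fell to 75.3% of control by the authors' deposited table, with an adjusted p of 0.0218. The abundant kinases Prkce and Mapk10 were at 0.21 and -0.17 by the authors' deposited table, with adjusted p-values of 0.106 and 0.16. The call of Pde8b ended without replicate 1 (-0.29) or 3 (-0.26) and that of Dock10 without replicate 2 (-0.39) or 3 (-0.37). On a wider list of kinase, phosphatase and cyclic nucleotide signalling, 9 of 58 very long genes had a value, 5 higher and 4 lower, with 1 that rose, 2 that fell and a median log2 fold change of 0.21. On a list of contactins and guidance genes 2 of 40 had a value, both lower and neither called. The genes with a value on both lists are also counted by role.

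Dock10 also stands on a list of 32 very long genes enriched in glia, of which 3 had a value, all lower, and 1 fell. Ntm, an adhesion protein, and Elmo1, a partner of DOCK proteins, were at -0.19 and -0.16 by the authors' deposited table, with adjusted p-values of 0.279 and 0.284. Markers of mature oligodendrocytes, none of them very long, were lower beside them. Of 12 such markers, 10 had a value, all 10 lower and 4 called (by the authors' deposited table, -0.73 at the lowest and -0.32 at the highest on the log2 scale), and 0 were at 0. Their summed level ranged from 37405 to 45904 normalised counts over the CaKO libraries. The list of 7 oligodendrocyte precursor markers had 3 with a value (Gpr17, Bcas1 and Olig1). Pdgfra, Cspg4, Olig2 and Sox10 of that list had none, so their direction is unknown here. The 3 with a value are not specific to precursors and cannot stand for them. The 9 astrocyte markers had 4 with a value. The genes with a value on both lists were all lower and 0 at 0, and 3 and 2 of these fell. Their summed levels ranged from 2119 to 3058 and from 10325 to 12908. The part of these cells in the decreases was not tested, and in bulk tissue fewer cells of a type and less RNA per cell cannot be told apart. Of 8 markers of pyramidal neurons, the cells in which Cre acts, 4 had a value, all lower, and 1 fell. Their summed level was 49161 to 67761. Among blood markers 3 of 5 had a value, all lower, and among endothelial markers 2 of 6, both lower, and 1 of each list fell. Microglia markers had 1 higher gene, which was not called, and meningeal markers 1 gene, which rose. Interneuron markers had 1 gene with a value, which fell. Of all listed genes in the adjustment, 20.5% were called and 45.1% were higher. No row for Gpr158 itself was found among the genes analysed here, all of which have a p below 0.05. The deletion could therefore not be checked, and whether Gpr158 was tested, or differed at that level, is not known from these values.

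Transcription and chromatin genes were mostly higher. Of 11, 8 were higher, 3 were lower and 1 rose, and the median log2 fold change was 0.29. Over all listed genes of the adjustment, 45.1% were higher, 20.5% were called and the median was -0.22. This role was assigned after the values were known, and the sign of such a median follows the split between higher and lower genes. Thrb, the thyroid hormone receptor beta (chromosome 14: 17660261 to 18038090), held 1587, 1481, 1690 and 1482 normalised counts (1560 ± 100.0, SD, n = 4). It rose 1.24-fold by the authors' deposited table with a log2 fold change of 0.31 and an adjusted p of 0.0291, and the call ended without replicate 1 (0.31) or 3 (0.27). Tox, an HMG-box factor, and the mineralocorticoid receptor Nr3c2 were at 0.36 and 0.24 by the authors' deposited table, with adjusted p-values of 0.0596 and 0.303. Foxp1, a forkhead factor of cortical neurons, was at -0.21 and the histone deacetylase Hdac8 at -0.52 by the authors' deposited table, with adjusted p-values of 0.0878 and 0.0896. Tshz2, a zinc finger factor, was at 0.54 by the authors' deposited table, with an adjusted p of 0.23. Its CaKO level was only 64.9 ± 7.48 normalised counts (SD, n = 4), and Gm26883 covers 67.5% of its exon sequence on the opposite strand. Of 39 very long genes on the wider list of transcription regulators, 5 had a value, 4 higher and 1 lower. These 5 are among the 11 counted above.

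The remaining roles held 2 calls. Asb3, a substrate adaptor of a ubiquitin ligase (chromosome 11: 30885416 to 31102704), held 383.9, 357.7, 365.8 and 359.5 normalised counts and rose 1.32-fold by the authors' deposited table, with an adjusted p of 0.0434. Its call ended with any of the 4 libraries left out, at log2 fold changes from 0.38 to 0.41, against 0.40 with all of them. Tmem132d, a transmembrane protein of neurons and oligodendrocytes (chromosome 5: 127781630 to 128433077), held 778.9, 740.4, 658.1 and 670.0 and fell to 78.9% of control by the authors' deposited table, with an adjusted p of 0.0148. That call ended without replicate 3 or 4, at -0.31 in both cases. The 5 RNA-processing genes, 8 genes of metabolism and lipid transfer and 2 trafficking genes held 0 calls. Among them Synpr, the vesicle protein synaptoporin, was at 0.41 by the authors' deposited table, with an adjusted p of 0.073. It had 2204 normalised counts in replicate 3 and 1549 to 1790 in the others. Rbfox3, the neuronal splicing factor also known as NeuN, was at -0.28 by the authors' deposited table, with an adjusted p of 0.282.

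The 2 highest log2 fold changes among the very long genes in the adjustment belonged to weakly expressed genes and did not pass. The highest of these very long genes was Thsd7b, a thrombospondin-domain protein with a span of 946 kb. Thsd7b was at 0.78 by the authors' deposited table, with an adjusted p of 0.109. It held 43.2, 59.1, 90.5 and 61.5 normalised counts, with replicate 3 at more than double replicate 1. Dpyd, which breaks down pyrimidines, was at 0.74 by the authors' deposited table, with an adjusted p of 0.162. It held 54.3, 51.1, 77.5 and 57.3. Klhl1, an actin-binding protein, was at -0.48 by the authors' deposited table, with an adjusted p of 0.227. Its lowest library was replicate 4 at 45.8. Below a CaKO mean of 300, 9 of 27 very long genes were higher and 4 fell. At 1000 or more, 28 of 49 were higher, 5 rose and 3 fell. The other protein-coding genes had 35.9% higher below a mean of 300 and 52.6% at 1000 or more.

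**Figure D4:**
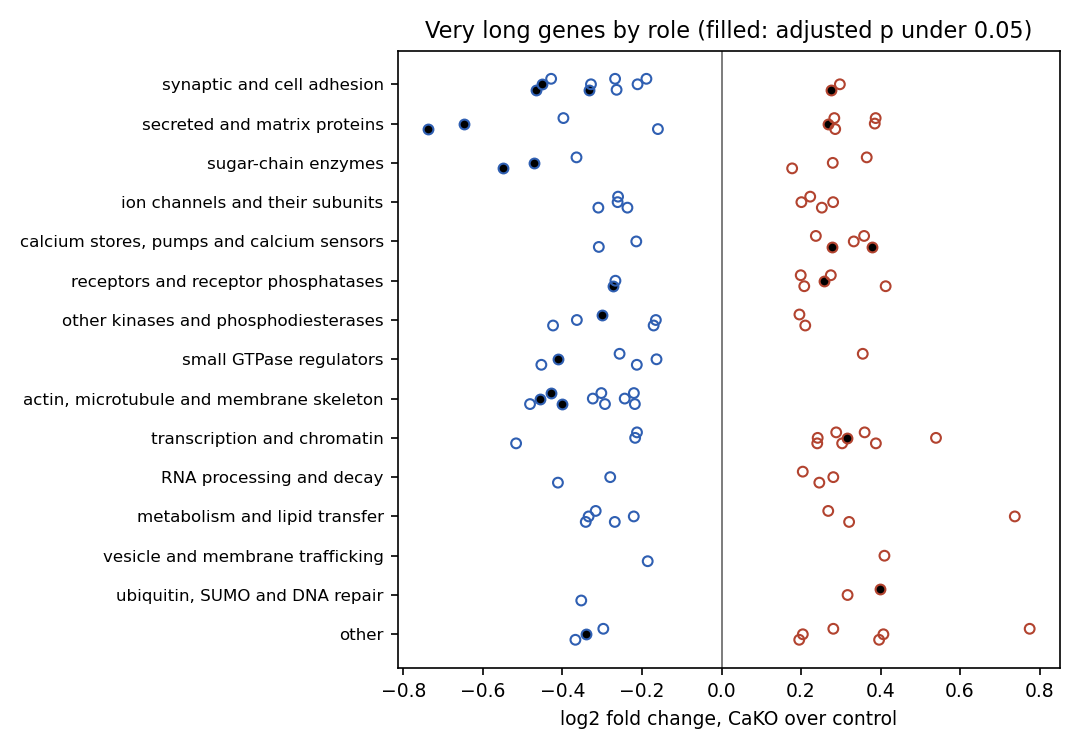
Log2 fold change (CaKO over control, authors' deposited table) of the 109 very long genes in the adjustment, by role. Each circle is 1 gene, red if higher and blue if lower, filled if the adjusted p was below 0.05, and the cytoskeletal row has 10 genes, all lower.

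The 21 called genes had all 4 CaKO libraries on the side of the change relative to the implied control mean. The same mean lay outside the CaKO range for 99.0% of all 419 called genes. The smallest distance to it was that of replicate 1 of Itpr1, and the largest spread over libraries was that of Hmcn1. In 15 of the 21, replicate 3 was the library farthest from the implied control mean.

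**Figure D5:**
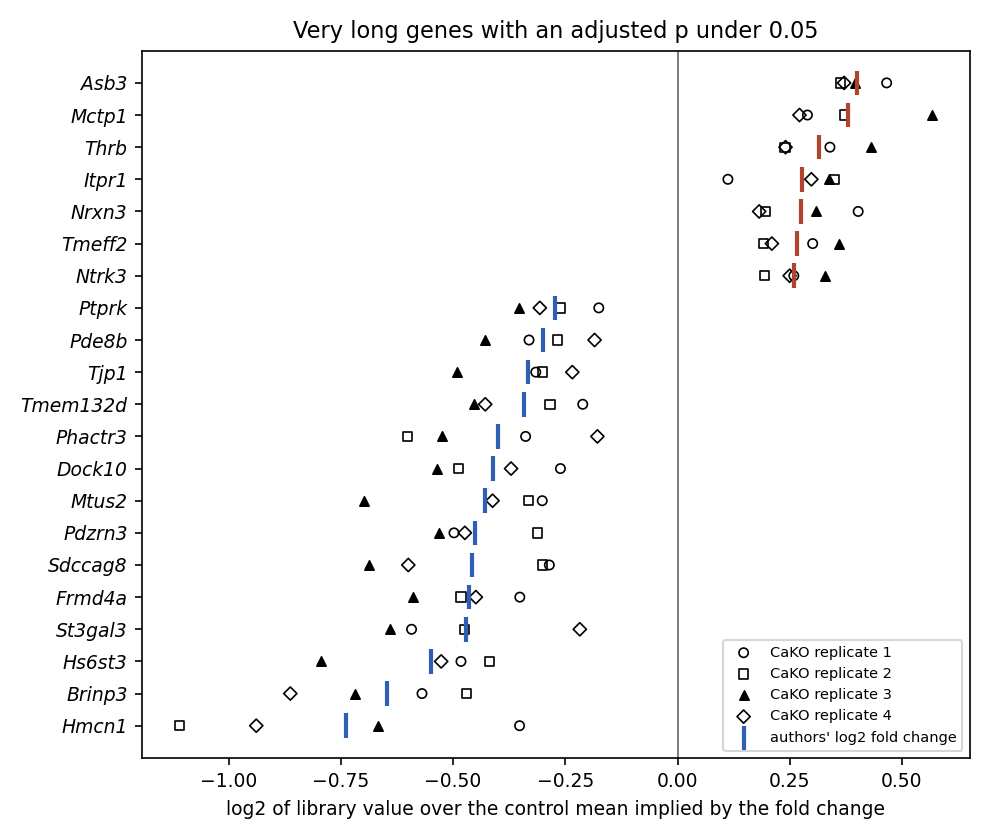
Log2 ratio of each CaKO library to the control mean implied by the authors' fold change, for the 21 very long genes with an adjusted p below 0.05. Symbols are the 4 libraries (replicate 3 filled), coloured bars the authors' log2 fold change, and no library crosses 0.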

How the data were processed

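RNA from the mPFC of 4 CaKO and 4 control mice, 1 library per mouse, was poly-A selected and sequenced as 100 bp paired ends. Per the labels and the series' design text, reads were aligned to GRCm38 with TopHat 2.0.12 and counted per gene with HTSeq 0.6.1, and per the submitters' processing notes DESeq2 1.30.1 was among the tools. Use of strand in counting is not given in the sources used here. Deposited CaKO values are a signal made by dividing counts by 1 factor per library: below 300, 100% were whole multiples of 1 step per library (tolerance 0.01). The log2 fold changes, p-values and adjusted p-values are the authors', as deposited. They were read as CaKO relative to control: each of the 18 genes at 0 in every CaKO library has a negative value. The deposited adjusted p-values fit Benjamini-Hochberg over 12938 genes (largest relative difference 0.00504), with 325 further genes listed at 1 and taken as outside the adjustment. Calls use the adjusted p below 0.05, so no test of differences was run here. The limma fit considered for all 8 libraries was not run because control values were not used.

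Genes were matched by position to GENCODE M21: 2266 exactly, 89 by at least 80% mutual overlap on the same strand, and 17 not at all. Near-identical copies were sought with BLAST 2.17.0 (98% identity over 200 bases and 50% of either transcript). The search kept matches to genes that overlap on the opposite strand (for Pde8b, Tmem108, Lrrtm4 and Tshz2), which are not second copies. The fold change without a library was recomputed from the implied control mean. The step was run on simulated data, where its formula must return the direct fold change. How close the approximation is for the deposited values was therefore not tested. Named genes were all calls, the 8 largest fold changes each way, the 6 highest means, the 4 longest spans and Nrxn3, with up to 4 genes of each list by smallest p. Camk2d, Hs3st4, Kcnq5, Nr3c2 and Ust, and the role groups, were picked after values were seen. The members, lists and rules were chosen with earlier results of these data known. A few results are not reported here. P-values measure the spread between these mice.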

Additional observations from a re-analysis of the deposited data

How the results depend on the processing

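The count of very long genes that kept an unadjusted p below 0.05 ranged from 25 to 40 higher and from 37 to 50 lower with 1 CaKO library left out, against 50 and 59. The calls kept ranged from 0 to 4 rises and from 4 to 11 falls, against 7 and 14, lowest without replicate 3. With genes that newly passed the same p limit, the ranges were 0 to 7 and 4 to 14. A limit of 300 kb left 32 lower genes and 7 falls and turned the median log2 fold change from -0.19 to 0.19. No listed gene lies near 0, so this median jumps between the signs when the split is near even. An adjusted p below 0.1 gave 13 rises. A limit of 150 kb, exact matches alone, no exclusion by name, a CaKO mean of at least 100 and removal of overlapping genes or of near-identical copies (the last added after seeing the data) kept every count within 1.5 times its value. With a CaKO library left out, 0 of the 37 named genes changed direction. For every named gene but Htr2c this was fixed in advance, because all CaKO libraries lay on the same side of the implied control mean. Synpr passed the threshold without replicate 4, at 0.47. Gains among genes with a p of 0.05 or more, which have no value here, cannot be seen. No paired analysis was possible because control values were not analysed here, so no replicate block could be fitted. Depth limits the weakly expressed genes most, and total depth is unknown.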
